A study of Mus musculus with 12 samples.

Results

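Rnase2a and 8 genes known from alternatively activated macrophages, Chil3, Retnla, Ccl24, Mrc1, Mgl2, Clec10a, Cd163 and Il4ra, are described here in cultured mouse lung endothelial cells (MLECs). These 9 of the 28689 genes in the deposited table were chosen by name after the difference between the groups had been seen, so their levels in the 2 groups are a description; the errors and calls of a fit over all genes are printed beside them, and nothing is read from these calls. The CTR group held 6 libraries from MLECs of VE-CAD-CreERT2-/Sp1 fl/fl/Sp3 fl/fl mice, and the dKO group held 6 libraries from MLECs of VE-CAD-CreERT2+/Sp1 fl/fl/Sp3 fl/fl littermates. Both groups carried the floxed alleles and received tamoxifen, so they differed in the Cre transgene, which the VE-cadherin promoter drives in endothelial cells. Cells from digested lungs of adult mice were selected with beads against CD31, then against ICAM2, and grown for a few passages. The number of mice behind a library is not given, so p-values measure the spread between libraries. The RNA extraction entry of the labels names retinas, whereas the source of every sample is given as lung.

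Alternative activation is the state that macrophages take on under interleukin 4 or interleukin 13. Both cytokines signal through the receptor chain IL4RA, which activates the transcription factor STAT6, and STAT6 target genes such as Chil3, Retnla and Mrc1 have become the usual markers of the state in mice. Rnase2a, also called Ear11, belongs to the eosinophil-associated ribonucleases, a mouse branch of the RNase A family whose members are secreted by eosinophils and macrophages. They are not general endothelial markers, and in the lung they are known from alveolar and interstitial macrophages.

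The depth was similar in the groups, between 16549824 and 17467059 fragments in a CTR library and between 15523054 and 17938286 in a dKO library. FPKM (fragments scaled to the length of the gene and to the total of the library) is a level per length, so levels can be compared between genes. Sp1 was lower in each dKO library than in each CTR library, at 10.6 ± 1.53 against 21.2 ± 1.77 FPKM (SD, n = 6 each), and Sp3 was below all CTR libraries in 2 of the 6, at 25.0 ± 1.64 against 27.7 ± 2.31 FPKM. All 14 tested endothelial markers were present, and their summed level was 243 to 384 FPKM in CTR and 436 to 595 FPKM in dKO. Core macrophage markers were present as well: none of the 15 was at 0, and their summed level was 758 to 1388 FPKM in CTR and 2214 to 4518 FPKM in dKO. The dKO library 3 held the most macrophage marker RNA, and dKO library 5 stood apart in the macrophage genes described below, so results are also given without these libraries where that changes them. In bulk RNA, more macrophages and more RNA of these genes in each macrophage cannot be told apart.

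Sp1 and Sp3 bind GC boxes, STAT6 binds a palindrome of TTC and GAA, and PU.1, the factor that macrophages depend on, binds purine-rich sites with a GAGGAA core. The 300 bases from 250 before to 50 after the transcript start are shown for 4 of the genes. They are Rnase2a, which had the largest difference, Mrc1, which holds a GC box, and a pair of neighbouring lectin genes, similar along part of their transcripts, whose levels differed. The sequences were read 5′ to 3′ on the gene's strand from GRCm39, which is mm39, at the start of the Ensembl canonical transcript. Capitals mark a GC box (GGGCGG) or a PU.1 core (GAGGAA), on either strand.
Rnase2a: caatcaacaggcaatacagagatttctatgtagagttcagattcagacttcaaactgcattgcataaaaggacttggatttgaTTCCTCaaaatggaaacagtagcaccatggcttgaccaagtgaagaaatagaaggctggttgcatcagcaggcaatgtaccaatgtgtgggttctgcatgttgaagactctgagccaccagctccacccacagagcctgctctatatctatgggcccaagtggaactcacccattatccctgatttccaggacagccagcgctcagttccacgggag
Mrc1: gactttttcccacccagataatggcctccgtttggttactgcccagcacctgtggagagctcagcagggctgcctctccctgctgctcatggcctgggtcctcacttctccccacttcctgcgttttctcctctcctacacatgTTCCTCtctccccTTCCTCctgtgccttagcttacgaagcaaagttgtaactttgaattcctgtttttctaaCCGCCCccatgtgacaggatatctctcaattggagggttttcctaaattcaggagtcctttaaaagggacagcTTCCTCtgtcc
Clec10a: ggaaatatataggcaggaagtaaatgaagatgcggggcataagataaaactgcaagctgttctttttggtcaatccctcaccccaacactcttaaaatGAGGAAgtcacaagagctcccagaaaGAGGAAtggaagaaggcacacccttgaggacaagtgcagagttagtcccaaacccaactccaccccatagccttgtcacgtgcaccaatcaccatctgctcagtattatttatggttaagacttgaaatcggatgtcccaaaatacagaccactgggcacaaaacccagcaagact
Mgl2: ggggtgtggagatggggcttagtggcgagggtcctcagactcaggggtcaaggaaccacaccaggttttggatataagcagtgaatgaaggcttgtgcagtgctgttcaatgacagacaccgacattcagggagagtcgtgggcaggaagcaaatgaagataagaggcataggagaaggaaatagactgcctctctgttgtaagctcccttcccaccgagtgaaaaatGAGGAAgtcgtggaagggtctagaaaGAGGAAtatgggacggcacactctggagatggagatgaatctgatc
The positions are chr14:51493546-51493845 (minus strand) for Rnase2a, chr2:14233901-14234200 (plus) for Mrc1, chr11:70057218-70057517 (plus) for Clec10a and chr11:70020704-70021003 (plus) for Mgl2.

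Motifs were searched in the windows of 8 genes, Ccl24 left out. A GC box was found 34 bases before the start of Mrc1 and in none of the other 7 windows, whereas 9248 of 21757 protein-coding windows of this length (42.5%) hold one. The STAT6 palindrome with 4 bases between its arms (TTCNNNNGAA), present in 6.82% of windows, was found in that of Retnla alone, 68 bases before the start. The palindrome with 3 bases between its arms (TTCNNNGAA), present in 8.82% of windows, was found in Chil3 alone. PU.1 cores, present in 27.6% of windows, were found in Rnase2a, Retnla, Mrc1, Mgl2 and Clec10a. Clec10a and Mgl2 each held a pair of cores, at 152 and 126 bases before the start of Clec10a, and at 22 bases before and 5 bases after that of Mgl2. The windows of Cd163 and Il4ra held none of the 4 motifs. These are matches of letters, and no binding was measured.

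**Figure D1:**
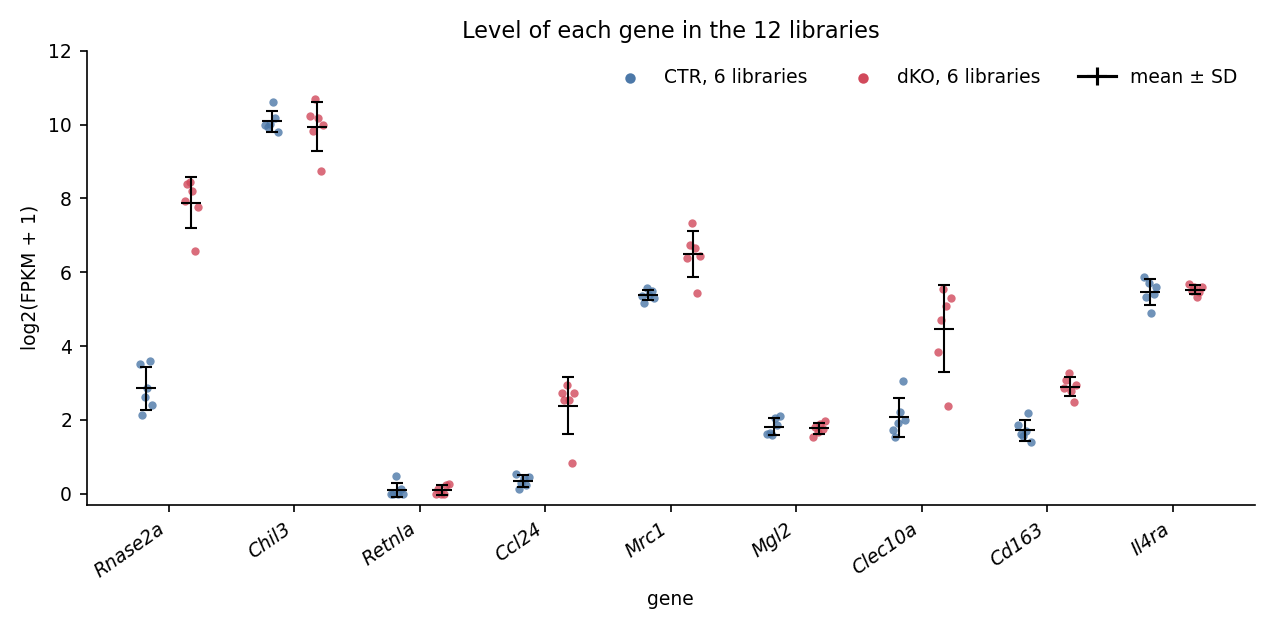
Level of the 9 genes in each library as log2(FPKM + 1); points are libraries (CTR blue, dKO red, 6 each), and black bars show the mean ± SD. The dKO points of Rnase2a, Ccl24 and Cd163 lie above all CTR points, those of Il4ra lie among them, and those of Chil3 and Mgl2 overlap with them.

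Of the secreted effectors, Rnase2a was far higher in dKO, Chil3 was abundant in both groups and Retnla was close to absent. Rnase2a (ENSMUSG00000047222, chr14:51492719-51493595, minus strand) encodes a secreted ribonuclease. Its level in the CTR libraries was 3.43 FPKM at the lowest, 5.74 at the median and 11 at the highest. In the dKO libraries the corresponding values were 93.9, 267 and 349 FPKM. The groups did not overlap, and the lowest dKO library, replicate 5, was still far above every CTR library. The means were 6.78 ± 3.19 FPKM in CTR and 254 ± 93.3 FPKM in dKO (SD, n = 6 each), a ratio of 37.5, or 42.3 without dKO library 5. These levels rested on 40 to 130 fragments in a CTR library and on 1135 to 4226 in a dKO library. The difference in log2(FPKM + 1) was 5.02 (SE 0.33), and 0 of the other 12466 tested genes had a larger rise on this scale.

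Chil3 (ENSMUSG00000040809, chr3:106054870-106074880, minus strand), also known as Ym1, encodes a chitinase-like lectin that alveolar macrophages secrete in quantity. It had the highest level of the 9 genes in both groups, at 884, 1026 and 1566 FPKM (lowest, median, highest) in CTR and 429.7, 1087 and 1663 FPKM in dKO. The groups overlapped along most of their range, and the ratio of means was 0.958, with a difference in log2(FPKM + 1) of −0.14 (SE 0.26). Without dKO library 5 the difference was 0.09, so its sign rested on that library. Chil4 is 94.3% identical to Chil3 over 1540 bases but held 2 fragments in all 12 libraries, so few fragments of Chil3 could have been assigned to it. Retnla (ENSMUSG00000061100, chr16:48662895-48664824, plus strand), which encodes the secreted protein RELMα or FIZZ1, held 5 fragments in all CTR libraries and 5 in all dKO libraries. It was below 1 FPKM in every library and was not tested, and no ratio is given.

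Ccl24 (ENSMUSG00000004814, chr5:135598668-135601905, minus strand) encodes eotaxin-2, a chemokine that attracts eosinophils through the receptor CCR3. It was near the detection limit in CTR, with 0.0914, 0.293 and 0.443 FPKM (lowest, median, highest), and had 0.794, 5.19 and 6.77 FPKM in dKO. The groups did not overlap. Of the dKO libraries, 5 lay between 4.78 and 6.77 FPKM, and dKO library 5 was far below them. The ratio of means was 17.0, or 19.9 without that library, from 37 fragments in all CTR libraries and 626 in all dKO libraries. Only 5 libraries reached 1 FPKM, so Ccl24 fell short of the filter for testing, and its difference in log2(FPKM + 1) of 2.04 has no fitted error.

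Among the lectin and scavenger receptors, Clec10a, Mrc1 and Cd163 were higher in dKO and Mgl2 had low values of similar size in both groups. Clec10a (ENSMUSG00000000318, chr11:70047023-70061660, plus strand), or MGL1, is a galactose-binding lectin of macrophages and dendritic cells. Its lowest, median and highest values were 1.90, 2.92 and 7.26 FPKM in CTR and 4.2, 29.0 and 45.9 FPKM in dKO. The groups overlapped through dKO library 5 alone, since the other 5 dKO libraries were above all CTR libraries. Mean levels were 3.49 ± 1.94 FPKM in CTR and 26.6 ± 15.7 FPKM in dKO (SD, n = 6 each), a ratio of 7.63, and the difference in log2(FPKM + 1) was 2.40 (SE 0.47).

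Mgl2 (ENSMUSG00000040950, chr11:70020954-70028376, plus strand), or CD301b, lies beside Clec10a and shares 93.9% identity with it over 830 bases, which is 33.5% of the transcript of Clec10a and 46.4% of its own. It had 2.02, 2.37 and 3.34 FPKM (lowest, median, highest) in CTR and 1.91, 2.43 and 2.93 FPKM in dKO. The groups overlapped, and the difference in log2(FPKM + 1) was −0.04 (SE 0.11). Thus the 2 lectins had similar levels in CTR, and in dKO the mean of Clec10a was 26.6 FPKM against 2.44 FPKM for Mgl2. Fragments from the shared stretch could have been assigned to either gene. Per the methods, only reads with a unique alignment were extracted and then aligned again. How fragments that fit both genes were counted after that is not given in the sources used here.

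Mrc1 (ENSMUSG00000026712, chr2:14234151-14336926, plus strand) encodes the mannose receptor CD206, which takes up glycoproteins and microbes. It had 35, 40.5 and 46.4 FPKM (lowest, median, highest) in CTR and 42.3, 93.2 and 161 FPKM in dKO. Relative to the mean, its spread in CTR was the smallest of the 9 genes, with an SD of 9.98% of the mean. Again 5 of the 6 dKO libraries were above all CTR libraries and dKO library 5 was among them. The ratio of means was 2.36, and the difference in log2(FPKM + 1) was 1.12 (SE 0.23). Mrc1 is also made by lymphatic and liver endothelium, so its RNA in CTR need not come from macrophages, and its source was not tested.

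Cd163 (ENSMUSG00000008845, chr6:124281606-124307560, plus strand) encodes the scavenger receptor for complexes of haemoglobin and haptoglobin. Its levels were 1.62, 2.14 and 3.56 FPKM (lowest, median, highest) in CTR and 4.61, 6.48 and 8.65 FPKM in dKO. The groups did not overlap, although the ratio of means was only 2.80. The difference in log2(FPKM + 1) was 1.18 (SE 0.15), and Cd163 had the most even values of the higher genes in dKO.

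Il4ra (ENSMUSG00000030748, chr7:125151079-125182844, plus strand), the receptor chain through which IL-4 and IL-13 act, had 28.7, 44.6 and 58.1 FPKM (lowest, median, highest) in CTR and 39.3, 45.6 and 50.4 FPKM in dKO. Every dKO value lay within the range of the CTR values. The means were 44.4 ± 10.4 and 45.3 ± 3.90 FPKM (SD, n = 6 each), and the difference in log2(FPKM + 1) was 0.06 (SE 0.14).

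The order of the levels therefore differed between the groups. In CTR it ran from Chil3 through Il4ra, Mrc1, Rnase2a, Clec10a, Mgl2, Cd163 and Ccl24 to Retnla, and neighbours had overlapping ranges except Chil3 and Il4ra, Mrc1 and Rnase2a, and Cd163 and Ccl24. In dKO it ran from Chil3 through Rnase2a, Mrc1, Il4ra, Clec10a, Cd163, Ccl24 and Mgl2 to Retnla, and the ranges of all neighbours overlapped except those of Chil3 and Rnase2a and of Mgl2 and Retnla.

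Of the 9 genes, 7 passed the filter, and 4 of these (Rnase2a, Clec10a, Mrc1 and Cd163) were past an adjusted p of 0.05 and higher in dKO, which was the case for 20.4% of the 12467 tested genes; 0 of them were past it and lower, against 32.6% of tested genes. Past a log2 fold change of 1.5 as well were 2 of them (Rnase2a and Clec10a), against 1.43% of tested genes. Every dKO library was above every CTR library for 2 of the 7, and for 11.3% of tested genes, and the untested Ccl24 showed the same. As the genes had been chosen on this contrast, nothing is read from these shares. The calls of the 7 tested genes were the same without dKO library 5, without dKO library 3 and under each of the other 18 alternatives.

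**Figure D2:**
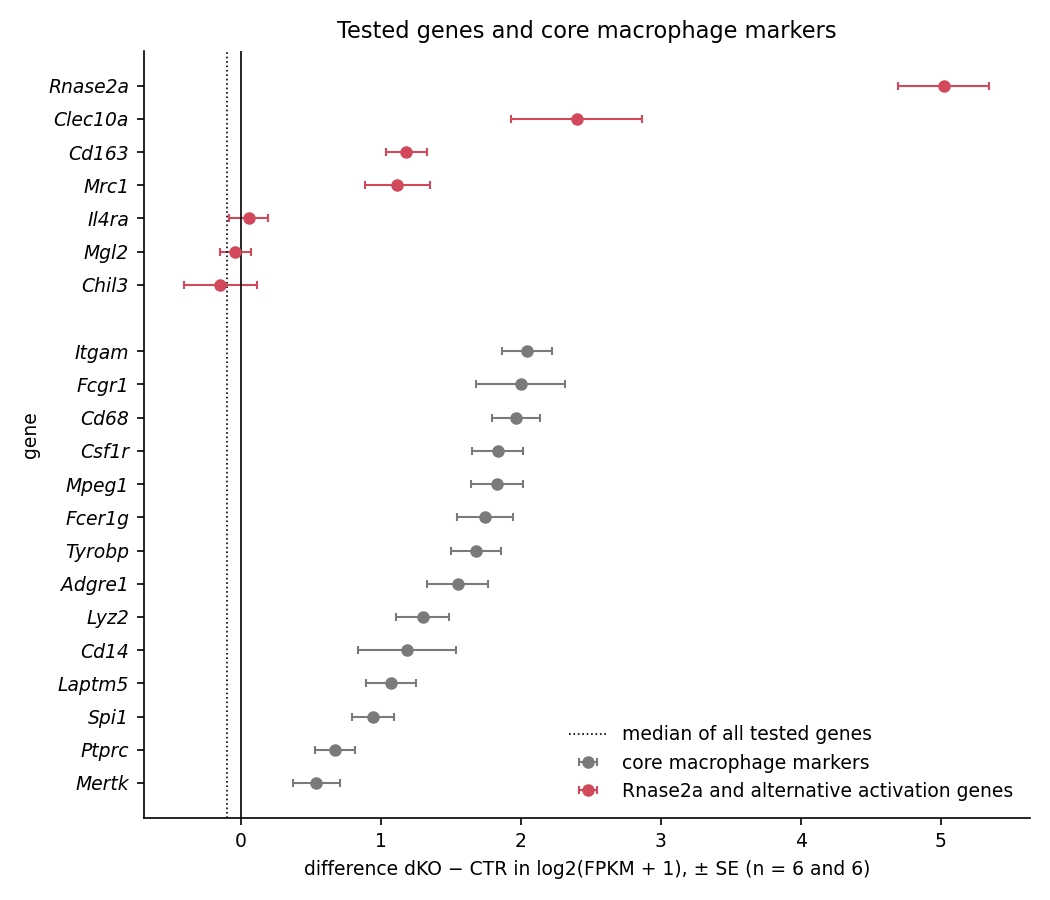
Difference between dKO and CTR in log2(FPKM + 1) with its SE (n = 6 and 6) for the 7 tested genes (red) and for 14 core macrophage markers (grey); the dotted line is the median of all tested genes, −0.10. Rnase2a at 5.02 and Clec10a at 2.40 lie to the right of all the markers, Clec10a with this pseudocount of 1 but not with smaller ones, and Chil3, Mgl2 and Il4ra lie near 0.

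Core macrophage markers were higher in dKO, as were Rnase2a, Clec10a, Mrc1, Cd163 and the untested Ccl24. The means of Chil3, Mgl2 and Il4ra differed little between the groups. All 14 tested markers were higher in dKO (adjusted p under 0.05; 20.4% of tested genes were), with a median difference of 1.62 on the log2(FPKM + 1) scale against −0.10 for all tested genes. Of these, Fcgr1 reached 1 FPKM in the dKO libraries alone and so passed the filter through the group where it is high, and the median of the other 13 was 1.55. Cd68, a lysosomal glycoprotein, rose from 85.2 ± 17.0 to 339.8 ± 96.8 FPKM (log2 fold change 1.96, SE 0.17, adjusted p = 2.91e-06). Lyz2, the macrophage lysozyme, rose from 746 ± 160 to 1868 ± 580 FPKM (adjusted p = 0.000119, SD and n = 6 each). The difference of Rnase2a was thus larger than that of the highest marker, Itgam at 2.05. That of Clec10a, 2.40, was larger than those of the markers on this scale, but with smaller pseudocounts, as TPM and with limma-voom it was below that of Fcgr1, whose ratio of means was 11.1 against 7.63 for Clec10a. The ratio of Fcgr1 rested in part on dKO library 3, at 17.3 FPKM against 1.96 to 5.67 FPKM in the other dKO libraries. The differences of Mrc1 and Cd163 lay within the markers' range, and those of Chil3, Mgl2 and Il4ra were below all 14. The part of macrophage number in these differences was not tested.

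Markers of the 2 lung macrophage types are given side by side, with no test between the lists. Of 8 tested interstitial macrophage markers 6 rose and 0 fell, beside 20.4% and 32.6% of all tested genes, and their summed level was 177 to 314 FPKM in CTR and 804 to 1846 FPKM in dKO. The complement gene C1qa had the largest rise among them, from 30.3 ± 10.1 to 398 ± 139 FPKM (log2 fold change 3.66, SE 0.23, adjusted p = 3.59e-07). Much of the interstitial sum in CTR was Lyve1, at 104 ± 26.5 FPKM in CTR and 119 ± 37.9 FPKM in dKO (limma adjusted p = 0.502). The source of the Lyve1 RNA was not tested. Of 9 tested alveolar macrophage markers 4 rose and 3 fell, beside the same shares. With members moving both ways, the summed levels overlapped, at 217 to 299.95 FPKM in CTR and 199.9 to 310.4 FPKM in dKO. The fatty acid binding protein gene Fabp4 rose from 15.6 ± 1.96 to 31.0 ± 2.64 FPKM (log2 fold change 0.95, SE 0.08, adjusted p = 3.05e-06). Relative to the mean of the other 5 dKO libraries, Fabp4 was at 102.5% in library 3 and 99.97% in library 5, and its source was not tested. The scavenger receptor gene Marco fell from 119 ± 20.8 to 43.1 ± 39.6 FPKM (log2 fold change −1.91, SE 0.46, adjusted p = 0.00404). The 4 untested markers, Siglecf, Krt79, Cidec and Ear1, had means under 1 FPKM in both groups, lower in dKO.

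Eosinophil genes were looked at because of the name of the ribonuclease family and because of Ccl24. Of the 8 eosinophil markers 5 had a row in the table, and Ccr3 held 0 fragments in CTR and 1 in dKO. Prg2, the major basic protein, held 14 and 23 fragments in all libraries of the groups. The summed level of the list was 7.46 to 15.6 FPKM in CTR and 0.556 to 9.50 FPKM in dKO, and most of it in CTR was Ear6, which fell in dKO while Rnase2a was higher there.

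**Figure D3:**
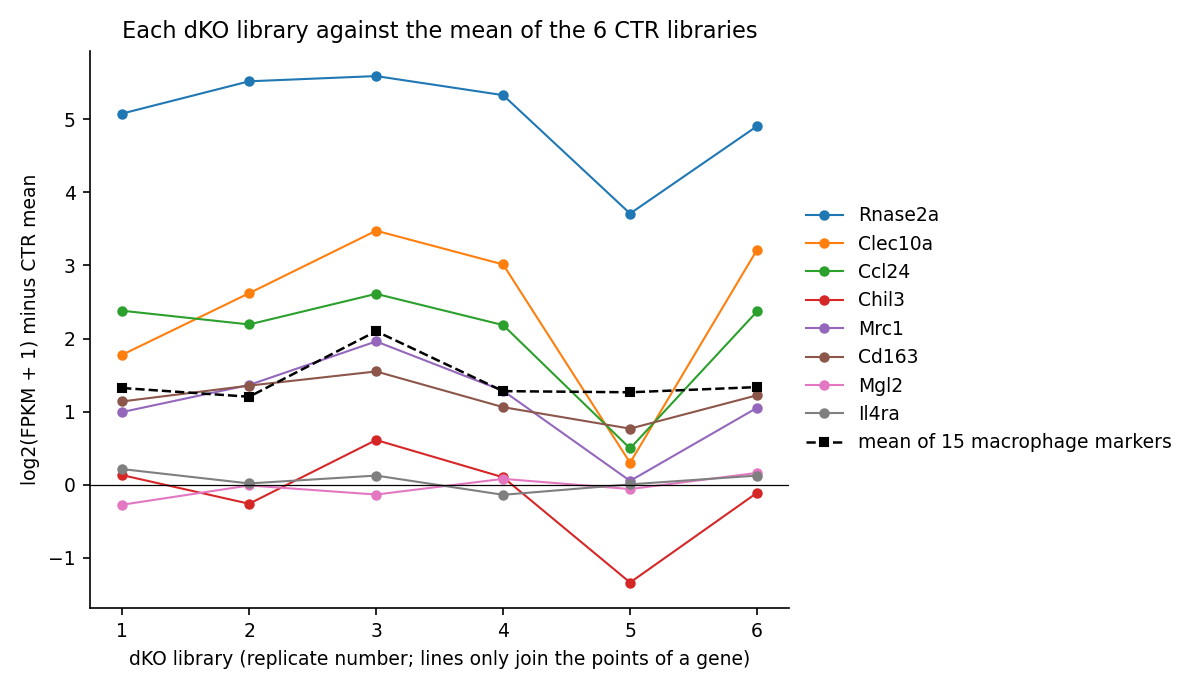
Level of 8 of the genes in each dKO library, as log2(FPKM + 1) minus the mean of the 6 CTR libraries; the dashed line is the mean of 15 core macrophage markers treated in the same way. Values of Rnase2a, Clec10a, Ccl24, Chil3 and Mrc1 drop in library 5 and most peak in library 3, while the macrophage mean peaks in library 3 and is level with libraries 1, 4 and 6 in library 5, where Cd14 and Adgre1 are high and 12 of the 15 markers are below the mean of the other dKO libraries.

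The spread among the dKO libraries, a measure other than the difference between the groups, was shared by most of the 9. The highest dKO value was in library 3 for 6 of the 9 genes and the lowest in library 5 for 6, whereas over the tested genes these libraries were the highest for 15.9% and the lowest for 15.8%. The core macrophage markers shared this order, with 14 of 15 highest in library 3 and 9 of 15 lowest in library 5, and so did the interstitial macrophage markers, with 8 and 6 of 12. Of 13 alveolar macrophage markers 3 were highest in library 3 and 6 lowest in library 5. Endothelial markers had another order, with 0 of 14 highest and 9 lowest in library 3, and 0 lowest in library 5. The exceptions among the 9 were Retnla, Mgl2 and Il4ra. Relative to the mean of the other 5 dKO libraries, library 5 had 32.8% of the level of Rnase2a, 36.2% of Chil3, 39.4% of Mrc1, 14.4% of Ccl24 and 13.5% of Clec10a. Cd163 was less reduced at 66.0%, and Mgl2 (96.9%) and Il4ra (95.3%) were not set apart. In the same library the core macrophage markers were at a median of 72.3% of the other libraries, from 26.8% for Fcgr1 to 113% for Csf1r, 150% for Adgre1 and 491% for Cd14, and the summed macrophage markers, 2217 FPKM, were level with dKO library 2 at 2214 FPKM.

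Genes of classical activation, the state induced by interferon gamma or bacterial products, were often highest in dKO library 5. It was the highest dKO library for 10 of the 20 genes of this list and the lowest for 0, against 13.1% and 15.8% of tested genes. It was also the highest for 7 of 23 genes of the alternative activation list described below and for 8 of 23 of the IL-4 receptor and STAT6 list, with the lowest values there for 3 and 5 genes; the lists were not tested against each other. Tnf, tumour necrosis factor, was at 7.53 FPKM in library 5 and between 0.0393 and 0.452 FPKM in the other 5. The values of Il1b, interleukin 1 beta, were 2.81 FPKM and 0.0292 to 0.238 FPKM. For Fpr2, a receptor for formyl peptides, they were 10.6 FPKM and 0.481 to 1.58 FPKM. Ccl7, a monocyte chemokine counted among the alternative activation genes here, had 199 FPKM in library 5 and 23.3 to 48.7 FPKM in the others, and Cd14, the lipopolysaccharide co-receptor, had 64.0 FPKM against 8.87 to 16.2 FPKM. These genes were picked out after their values were seen, 1 library carries the pattern, and what set it apart was not tested.

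**Figure D4:**
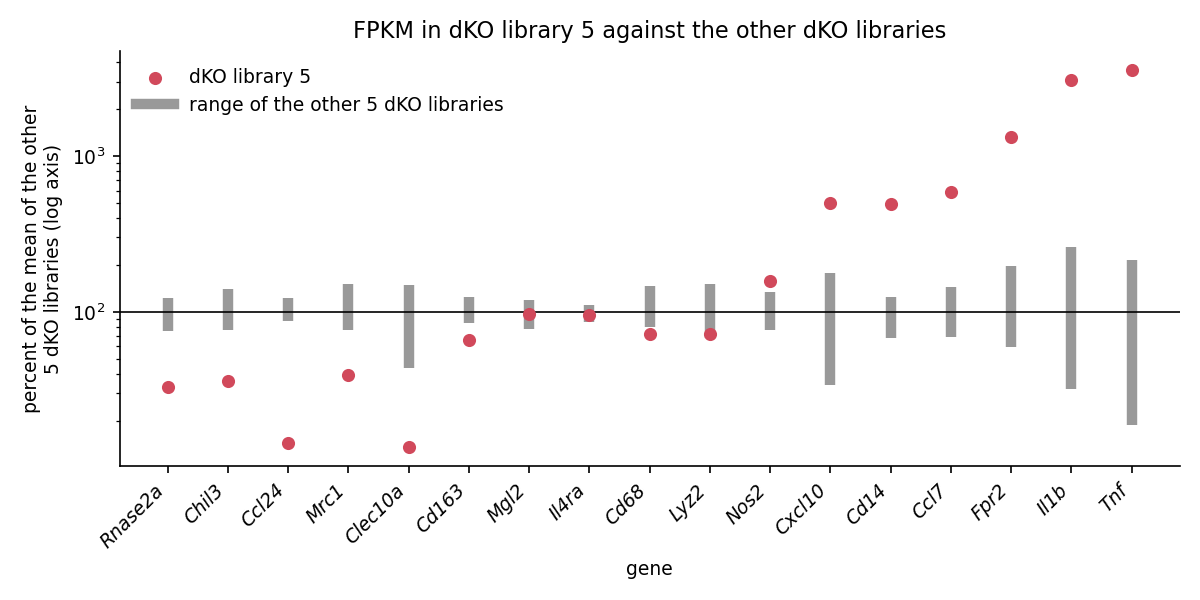
FPKM in dKO library 5 as a percent of the mean of the other 5 dKO libraries (red points, log axis), with the range of those 5 libraries as grey bars. Rnase2a, Chil3, Ccl24, Mrc1, Clec10a, Cd163 and the macrophage marker Cd68 lie below the bars. Mgl2, Il4ra and Lyz2 lie within them, and Nos2, Cxcl10, Cd14, Ccl7, Fpr2, Il1b and Tnf above them.

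Whether the genes followed macrophage content within a group was tested for 8 genes, Retnla left out, as the correlation of log2(FPKM + 1) with the mean of the 15 macrophage markers over the 6 libraries of that group. Among these 16 relations, 6 of 8 were positive in CTR (Pearson r from −0.71 to 0.94, median 0.47) and 7 of 8 in dKO (r from −0.30 to 0.65, median 0.43). Without dKO library 5, 7 of 8 were positive in dKO with a median of 0.66, and without CTR library 5, 7 of 8 were positive in CTR with a median of 0.28. Without dKO library 3, 4 of 8 were positive in dKO with a median of 0.06, and Rnase2a (−0.14), Mrc1 (−0.09) and Cd163 (−0.13) turned negative. Without the 2 libraries farthest from the median of the markers, which are CTR 4 and 5 and dKO 2 and 3, the median r was 0.17 in CTR and 0.61 in dKO, and Rnase2a (0.53), Mrc1 (0.55) and Cd163 (0.89) were positive in dKO, so the sign of these relations changed with the libraries left out. Chil3 followed the markers closely in CTR, with r = 0.94 (exact permutation p = 0.00139, the smallest that 6 libraries allow, adjusted p = 0.0222 over 16) and Spearman's rho = 1.00 (exact permutation p = 0.00278, adjusted p = 0.0444). Without CTR 4 and 5, r was 0.85. None of the other 15 relations had an unadjusted p under 0.05. For Rnase2a r was 0.42 in CTR (exact permutation p = 0.378, adjusted p = 0.494, Spearman's rho 0.66 with p = 0.175) and 0.38 in dKO (exact permutation p = 0.313, adjusted p = 0.455, Spearman's rho 0.20 with p = 0.714). Without CTR 4 and 5 the value in CTR was 0.12.

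The gene whose values ran closest to Rnase2a over the 12 libraries, after the mean of each group was subtracted, was Cd163 (r = 0.86), followed by Emb (0.85), Gm12366 (0.85), Jaml (0.83) and Rab42 (0.83). Of the other genes, Mrc1 was at rank 16 of all tested genes, Clec10a at rank 27 and Chil3 at rank 50, whereas Il4ra (r = 0.14) and Mgl2 (r = −0.06) were at ranks 3149 and 7453. These correlations describe the 12 libraries, of which 1, dKO library 5, is low for most of these genes.

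Few other genes of the RNase A family passed the filter, and nothing about the family is read from their counts. The list held 19 genes, the inhibitor gene Rnh1 among them, of which 15 had a row and 5 passed the filter. Of these 2 rose, 1 fell and 2 did not pass the test, and without Rnh1 1 of 4 rose and 1 fell, against 20.4% of tested genes that rose and 32.6% that fell. Ear6, 81.5% identical to Rnase2a in its transcript, fell from 10.9 ± 3.0 to 2.03 ± 3.63 FPKM (log2 fold change −2.57, SE 0.50, adjusted p = 0.000959), with dKO library 6 at 9.17 FPKM among the CTR values. Ear2 had 15.5 ± 5.03 and 18.9 ± 7.40 FPKM (adjusted p = 0.491), and Rnase2b, 84.5% identical over 561 bases, held 4 and 3 fragments in all. Rnase2a, Ear6 and Ear2 thus had log2 differences of 5.02, −2.57 and 0.23 in the same libraries. Rnh1, the ribonuclease inhibitor of the cytosol, rose from 98.9 ± 13.2 to 176 ± 28.2 FPKM (log2 fold change 0.82, SE 0.11, adjusted p = 7.91e-05), and Rnase4 rose by 0.79 on the log2 scale (SE 0.24, adjusted p = 0.0152). Rnase1 and Ang2 held 0 fragments in CTR and 32 and 53 fragments in all dKO libraries, with at least 2 in each.

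**Figure D5:**
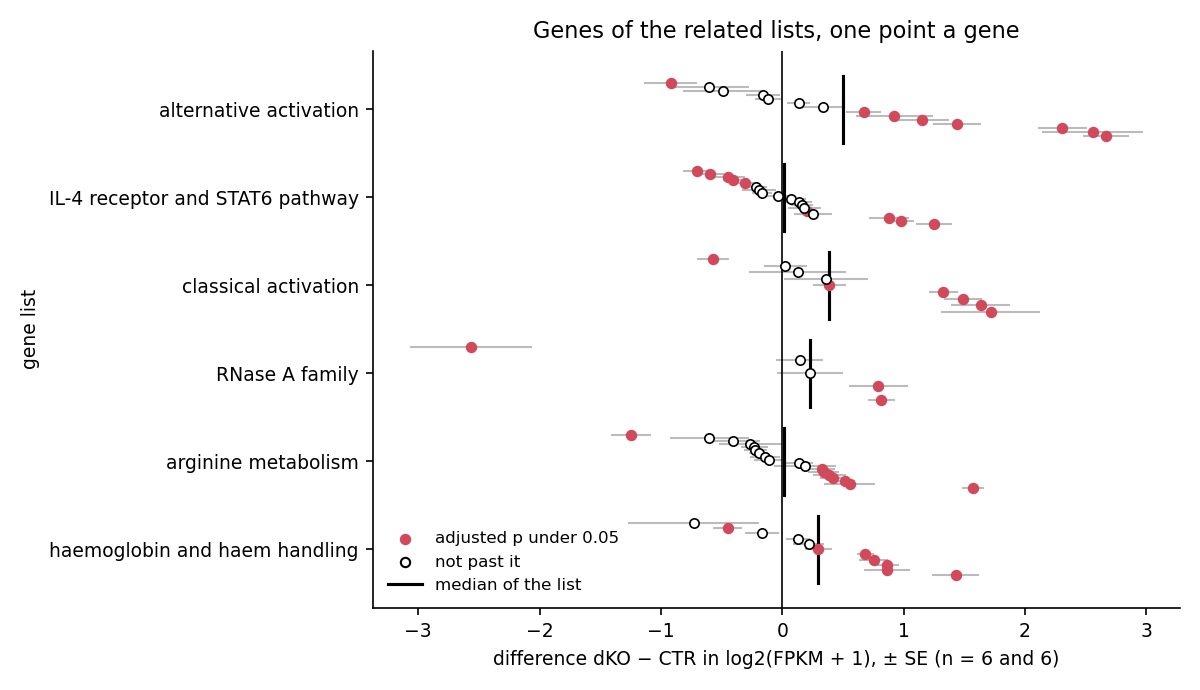
Difference between dKO and CTR in log2(FPKM + 1) with its SE (n = 6 and 6) for the tested genes of 6 related lists that hold none of the 9 genes; filled points have an adjusted p under 0.05 and black bars are list medians. Genes lie on both sides of 0 in each list, with medians between 0.01 and 0.50.

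Other genes of alternative activation rose more often than they fell. Of 14 tested genes of the list 7 rose, 1 fell and 6 did not pass the test, beside 20.4% of all tested genes that rose and 32.6% that fell, with a median difference of 0.50 against −0.10 over all tested genes. Mmp12, macrophage elastase, rose from 0.317 ± 0.0998 to 7.76 ± 3.07 FPKM (log2 fold change 2.67, SE 0.19, adjusted p = 6.50e-07). It reached 1 FPKM in the dKO libraries alone and so passed the filter through the group where it is high; among the other 13 tested genes 6 rose and 1 fell, with a median of 0.33. The monocyte chemokines followed, Ccl7 with a log2 fold change of 2.56 (SE 0.42, adjusted p = 0.00025) and Ccl8 with 2.31 (SE 0.20, adjusted p = 2.81e-06), and Clec7a, the beta-glucan receptor, rose by 1.44 (SE 0.20, adjusted p = 8.28e-05). Egr2, a transcription factor of the alternative state, fell by 0.92 (SE 0.22, adjusted p = 0.00358). Without dKO library 5, 6 genes rose and 3 fell among 13 tested.

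Genes of the IL-4 receptor and STAT6 pathway were called about as often as tested genes in general. Of 18 tested genes 4 rose, 5 fell and 9 did not pass the test, near the 20.4% and 32.6% of all tested genes, with a median of 0.02; with median-of-ratios scaling 5 rose and 4 fell. Stat6 itself rose slightly, from 37.6 ± 2.60 to 43.5 ± 2.08 FPKM (log2 fold change 0.21, SE 0.06, adjusted p = 0.0114). Il2rg, the gamma chain that pairs with IL4RA, rose by 0.98 (SE 0.11, adjusted p = 1.53e-05), and Il13ra1, which pairs with it for IL-13, fell by 0.60 (SE 0.11, adjusted p = 0.000731). The RNA of the 2 receptor partners thus changed in opposite directions, with Il4ra RNA at 44.4 and 45.3 FPKM. Mean levels in CTR and dKO were 1.01 and 3.01 FPKM for Il2rg and 34.7 and 22.9 FPKM for Il13ra1. Which cells made these RNAs was not tested. Ptpn6, a phosphatase of blood cells, rose by 1.25 (SE 0.15, adjusted p = 2.74e-05), Klf4 rose by 0.88 (SE 0.16, adjusted p = 0.000689) and Jak2 fell by 0.71 (SE 0.11, adjusted p = 0.000173). Il4 was at 2.25 ± 0.549 and 2.16 ± 0.459 FPKM (adjusted p = 0.816), and Il13 held 4 and 1 fragments in all.

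Of 9 tested classical activation genes 5 rose, 1 fell and 3 did not pass the test, beside 20.4% and 32.6% of all tested genes, with a median of 0.39. Cxcl10, an interferon-induced chemokine, rose by 1.72 (SE 0.40, adjusted p = 0.00337), but it reached 1 FPKM in the dKO libraries alone and so passed the filter through the group where it is high. Among the other 8 tested genes 4 rose and 1 fell. The co-stimulator Cd80 rose by 1.63 (SE 0.24, adjusted p = 0.000124), the transcription factor Irf5 by 1.49 (SE 0.16, adjusted p = 1.10e-05) and Cd38 by 1.33 (SE 0.12, adjusted p = 3.36e-06). Nos2, the inducible nitric oxide synthase, had 1.72 ± 0.397 and 2.58 ± 0.725 FPKM (adjusted p = 0.0295), a call that was lost with no filter and without CTR library 1 or 6 or dKO library 4 or 5. Socs3, an inhibitor of cytokine signalling, fell by 0.57 (SE 0.13, adjusted p = 0.00265). Without dKO library 5, 3 genes rose and 1 fell among 8 tested, so alternative and classical lists both held genes that rose and fell.

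Of 18 tested genes of arginine metabolism 7 rose and 1 fell, beside 20.4% and 32.6% of all tested genes, with a median of 0.01; as TPM 5 rose and 3 fell. Ass1, which rebuilds arginine from citrulline, rose from 5.83 ± 0.920 to 19.2 ± 1.51 FPKM (log2 fold change 1.57, SE 0.09, adjusted p = 1.88e-07), and Asl, which acts in the next step of that synthesis, rose by 0.52 (SE 0.08, adjusted p = 0.00023). The arginine transporter gene Slc7a1 fell by 1.25 (SE 0.17, adjusted p = 6.45e-05). Gatm, which uses arginine in creatine synthesis, rose by 0.56 (SE 0.21, adjusted p = 0.0408), a call that was lost in 10 of 20 alternatives. The transporter and the enzymes of arginine synthesis thus went in opposite directions.

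Of 11 tested genes of haemoglobin and haem handling, around Cd163, 6 rose and 1 fell, beside the same 20.4% and 32.6%, with a median of 0.30. Slc11a1, an iron transporter of phagosomes, rose by 1.43 (SE 0.19, adjusted p = 5.92e-05), haem oxygenase Hmox1 by 0.86 (SE 0.19, adjusted p = 0.00205), and the ferritin chains Ftl1 and Fth1 by 0.86 (SE 0.10, adjusted p = 1.70e-05) and 0.75 (SE 0.12, adjusted p = 0.000249). The chitinase family had 2 tested genes beside Chil3, and both fell, Chil1 (Chi3l1) by 0.72 (SE 0.20, adjusted p = 0.00872) and Ctbs by 0.41 (SE 0.06, adjusted p = 0.000167). Among the eotaxins and their receptor only Ccl11 was tested; it had 4.19 ± 4.25 FPKM in CTR and 1.18 ± 1.48 FPKM in dKO (SD, n = 6 each, adjusted p = 0.0485), a call that was lost in 11 of 20 alternatives. The mean of Ccl11 was thus lower in dKO and that of Ccl24 higher. Library 4 of each group carried much of the Ccl11 means, at 12.4 FPKM in CTR (1.03 to 4.43 FPKM in the others) and 4.12 FPKM in dKO (0 to 0.943 FPKM in the others).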

How the data were processed

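RNA of MLECs was measured in 6 CTR and 6 dKO libraries. Per the labels and methods, the authors aligned the reads to mm39 (the methods name STAR; the labels also name Bowtie2, HISAT2 and TopHat2) and deposited FPKM values; the counting program, annotation and strand setting are not given in the sources used here. The knockout columns are named after tamoxifen, which both groups received, so they were taken as dKO by exclusion, being those not named CTR, and matched to samples by replicate number. The authors used DESeq2 on counts; since FPKM are not counts, limma 3.58.1 (R 4.3.3, lmFit, eBayes with trend, no covariate) was used here on log2(FPKM + 1), for the 12467 genes that reached 1 FPKM in 6 or more of the 12 libraries, with Benjamini-Hochberg adjustment over all of them. "Rose" and "fell" mean an adjusted p under 0.05, and a fold change on this scale understates that of low genes. The study's fold threshold was 1.5 on the log2 scale.

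Whole fragments were recovered as FPKM times a whole gene length and library total (100% of values within 0.02 of a whole number; sums within 0.0131% of the totals) for depth and limma-voom only. GENCODE vM39 gave names and positions for 27706 genes (96.6%). A floor of 3 fragments on 2 kb is 0.0836 to 0.0966 FPKM, for counting error only. No 2 libraries of a group agreed within sampling noise (chi-square per degree of freedom at least 11.4 over 30 pairs). Transcripts were compared with BLAST 2.17.0. Exact two-sided permutation tests used all orders of 6 libraries (Python 3.11.15, SciPy 1.17.1).

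The genes and lists were chosen with earlier results of these data known. Some further genes and a promoter are not reported here. Named were the 9 genes, in each list the 4 called genes with the largest fold change and those whose role the list's name gives, and the 5 genes most like Rnase2a; Tnf, Il1b, Fpr2, Cd14, Cd68, Lyz2, Fcgr1, Csf1r, Adgre1, Itgam, C1qa, Marco, Fabp4, Pecam1, Clec9a, Il7r and Mcpt8 were added after their values were seen. Alternatives were other pseudocounts (0.1, 0.01), no filter, a filter on the mean, median-of-ratios scaling, TPM, limma-voom, a replicate block and leaving out each library. Counts without Rnh1, without genes that reached 1 FPKM in 1 group only and without genes named late were chosen after seeing the data. The steps were tested on simulated data.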

Additional observations from a re-analysis of the deposited data

Results flagged for a closer look

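In 136 groups of 6 values (the 9 genes, the named genes of the lists, Sp1, Sp3 and the summed macrophage markers, in CTR and in dKO), 26 extreme libraries lay farther from the nearest other library than Dixon's 95% critical share of the range of their group. For normally distributed values chance gives such a distance in about 1 of 20 groups, a rate that need not hold for FPKM. Near 0, 1 fragment against 0 in the other libraries is always flagged, as for Il13 and Ccr3 in dKO and Il1b in CTR. Moreover, 17 of the genes were named after their values were seen. Without these genes there were 15 such libraries in 102 groups.

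Of the 26, 8 were in dKO library 5, or 4 of the 15. Ccl24 was lowest there at 0.794 FPKM, against 4.78 to 6.77 FPKM in the other dKO libraries. Tnf at 7.53 FPKM, Il1b at 2.81 FPKM, Fpr2 at 10.6 FPKM, Cxcl10 at 17.4 FPKM, Ccl7 at 199 FPKM, Cd14 at 64.0 FPKM and Jak2 at 25.5 FPKM were highest there.

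In dKO library 3 the highest values were 4518 FPKM for the summed macrophage markers, 2953 FPKM for Lyz2, 17.3 FPKM for Fcgr1, 10.3 FPKM for Irf5, 17.6 FPKM for Ptpn6 and 0.0174 FPKM for Ccr3, the last from 1 fragment. Ear6 was highest in dKO library 6 at 9.17 FPKM. Mcpt8 was highest in dKO library 1 at 3.55 FPKM and in CTR library 1 at 14.0 FPKM. Ccl11 was highest in dKO library 4 at 4.12 FPKM and in CTR library 4 at 12.4 FPKM, and Il13 in dKO library 4 at 0.0463 FPKM, from 1 fragment.

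Among the CTR libraries, library 5 was highest for Clec10a at 7.26 FPKM, for C1qa at 49.3 FPKM and for Il7r at 1.23 FPKM. Retnla was highest in CTR library 3 at 0.404 FPKM, from 4 fragments, as was Il1b at 0.0317 FPKM, and Jak2 was lowest in CTR library 4 at 24.4 FPKM.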

How the results depend on the processing

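All 4 tested genes among the 9 that were called higher in dKO kept that call, and Chil3, Mgl2 and Il4ra stayed uncalled, under each of the 20 alternatives; Ccl24 was called higher with no filter, and with a filter on the mean FPKM and as TPM, which it passed through its dKO values. Of 46 named list genes tested, 39 had the same call throughout, Nos2, Gatm, Fth1 (no filter) and Ccl11 did not, and 3 (Mmp12, Cxcl10 and Fcgr1) fell short of the filter in 6 of the 20 alternatives. The number of genes called was 6614, of which 2549 (38.5%) were higher in dKO, between 5772 and 6736 with a library left out (lowest without CTR 3). With median-of-ratios scaling it was 6234, 51.7% of them higher, and the median of all tested genes moved from −0.10 to −0.02. Past the fold threshold there were 247 genes, 209 to 258 with a library left out, but 486 and 525 with pseudocounts of 0.1 and 0.01, 459 as TPM and 516 with limma-voom on recovered fragments. Called genes of the RNase A family were 3, and 6 with no filter, and those of arginine metabolism 8 (7 higher), and 5 with no filter, 5 higher and 3 lower as TPM and 7 higher and 4 lower with the replicate block. The eotaxin call, Ccl11, gave 0 with a pseudocount of 0.01, with no filter and with median-of-ratios scaling, and 0 to 1 with a library left out. Replicate numbers did not consistently pair the libraries (correlations from −0.11 to 0.57, over 0.1 in 3 of 6, and 2 of 6 best with their own number). The replicate block gave 6955 calls and 247 past the fold threshold. Depth limits Retnla, Ccr3, Il13 and Rnase2b, at a few fragments each.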

Other observations

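Markers of endothelial, fibroblast and smooth muscle, and lung epithelial cells were looked at as well, and cell numbers were not tested. Of all tested genes 20.4% rose and 32.6% fell. Of 14 endothelial markers 13 rose and 0 fell, with a median difference of 0.82 in log2(FPKM + 1), and Pecam1, which encodes CD31, rose from 33.4 ± 6.66 to 60.2 ± 8.27 FPKM (SD, n = 6 each, limma adjusted p = 0.000147). Fibroblast and smooth muscle markers had summed levels of 3057 to 3521 FPKM in CTR and 1451 to 2047 FPKM in dKO; of 8 tested, 2 rose and 3 fell, with a median of −0.53. Of 10 tested lung epithelial markers 3 rose and 0 fell, and their summed levels overlapped, at 151 to 598 FPKM in CTR and 275 to 446 FPKM in dKO.

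Summed markers of other blood cells were low. The summed level was 2.40 to 2.72 FPKM in CTR and 2.65 to 3.39 FPKM in dKO for 7 dendritic cell markers, 1.30 to 4.15 and 4.36 to 12.6 FPKM for 8 neutrophil markers, and 4.93 to 15.98 and 10.2 to 11.6 FPKM for 11 lymphocyte and mast cell markers. Within the last list Il7r, the interleukin 7 receptor, rose from 0.546 ± 0.347 to 5.80 ± 1.12 FPKM (SD, n = 6 each, log2 fold change 2.15, SE 0.14, limma adjusted p = 4.01e-07). Il7r reached 1 FPKM in the dKO libraries and in CTR library 5 alone, so it passed the filter mainly through the group where it is high. Mcpt8, a basophil protease that was not tested, had means of 4.27 FPKM in CTR and 0.869 FPKM in dKO. Library 1 of each group carried much of these means, at 14.0 FPKM in CTR (0.402 to 4.71 FPKM in the others) and 3.55 FPKM in dKO (0.112 to 0.681 FPKM in the others). Of the 2 tested dendritic cell markers Clec9a rose, from 1.10 ± 0.124 to 1.60 ± 0.211 FPKM (SD, n = 6 each, limma adjusted p = 0.0042). Dendritic cells also express Clec10a and Mgl2, and their part in those levels was not tested.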
